A study of Mus musculus with 6 samples.

Results

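The ERK feedback inhibitors measured here were 10 genes, chosen by name: the dual-specificity phosphatases Dusp1, Dusp4, Dusp5 and Dusp6, the Sproutys Spry1, Spry2 and Spry4, and the Spreds Spred1, Spred2 and Spred3. Each had 1 row, its symbol in capitals, among the 23282 gene rows of the deposited tables, and 9 had enough reads to be tested. RNA came from a murine astrocyte line labelled Ink4a-/- and named Ink4a/Arf-/- by the study, which lacks both tumor suppressors of that locus. Control cells (3 libraries) carried pcDNA3.1-puro without an insert, and JAG1-overexpressing cells (3 libraries) received pcDNA3.1-JAG1-puro by transfection, so that the vector, its puro cassette and the Ink4a/Arf deletion were shared by both groups. The labels give the genotype WT to the control libraries, read here as without JAG1. Whether replicates are separate transfections or clones is not given in the sources used here, so that p-values measure the spread between these libraries, which may be technical.

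ERK, the last kinase of the cascade from receptor tyrosine kinases through RAS, RAF and MEK, switches on genes whose products shut the same cascade down. The dual-specificity phosphatases remove phosphate from MAP kinases: DUSP6 acts on ERK in the cytoplasm, DUSP5 on ERK in the nucleus, and DUSP1 and DUSP4 are nuclear and also act on p38 and JNK. Sproutys and Spreds act further up, between the receptor and RAF, and Spreds bring the RAS inhibitor neurofibromin to the membrane. Because their transcription follows ERK activity, the mRNAs of Dusp6, Spry2 and Spry4 are widely used as readouts of the pathway in glial and glioma cells.

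The libraries, made with the QuantSeq method that reads the 3' end of mRNA, held between 14341634 and 20489062 counted reads. Levels are given as CPM, counted reads per 1e6 after TMM scaling of the library size. A gene was called at an adjusted p under 0.05 from the quasi-likelihood test of edgeR, and 55.1% of the 11712 tested genes were called. Jag1 itself rose from 10.3 ± 1.18 to 14.2 ± 0.862 CPM (SD, n = 3 each; log2 fold change 0.46, edgeR adjusted p = 0.00446), and counts per gene do not part plasmid from cellular transcripts. The astrocyte label was checked against 12 markers: Gfap and Aqp4 had 0 reads in every library, the summed level was 338 to 399 CPM in control and 124 to 137 CPM in JAG1-overexpressing libraries, and 6 of the 7 tested markers were lower. The summed level of 6 fibroblast or mesenchymal markers was 504 to 551 CPM in control and 272 to 319 CPM in JAG1-overexpressing libraries. Of the 5 tested markers of this list 4 were lower and 1, Col1a2, was higher, at 3.35 ± 0.528 and 50.7 ± 6.20 CPM (SD, n = 3 each), and Lum was at 0. The sum of 6 neuronal markers was 76.4 to 84.5 and 8.12 to 9.11 CPM, with both tested markers lower and Snap25 and Syt1 at 0. Most of this sum was Tubb3, at means of 78.15 and 8.40 CPM, and Rbfox3 and Nefl had at most 1 read in a library. Markers of microglia, of oligodendrocytes and of endothelial cells summed to at most 4.03 CPM each in any library, with Mog, Mag, Olig1, Sox10 and Tek at 0. These shifts moved with the groups compared below, and their part in the results was not tested.

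The feedback inhibitors were higher in JAG1-overexpressing astrocytes with 1 exception. Of the 9 tested members 8 rose and Spry1 fell, against 27.4% of all tested genes called higher and 27.7% called lower. Among the 8, Spry4 would have been too low for testing on its control libraries alone. Groups did not overlap for 62% of all tested genes and for 9 of 9 tested members. The 8 members that rose had each JAG1-overexpressing library above each control library, as had 31.1% of all tested genes, and Spry1 had each below, as had 30.9%. The median log2 fold change of the 9 was 0.76, beside 0.00386 over all tested genes. The reads of the 10 members together made up between 0.0209% and 0.0238% of the counted reads in control libraries and between 0.0387% and 0.0454% in JAG1-overexpressing libraries. In bulk RNA, a change in the share of cells that express a gene and a change in RNA per cell cannot be told apart.

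**Figure D1:**
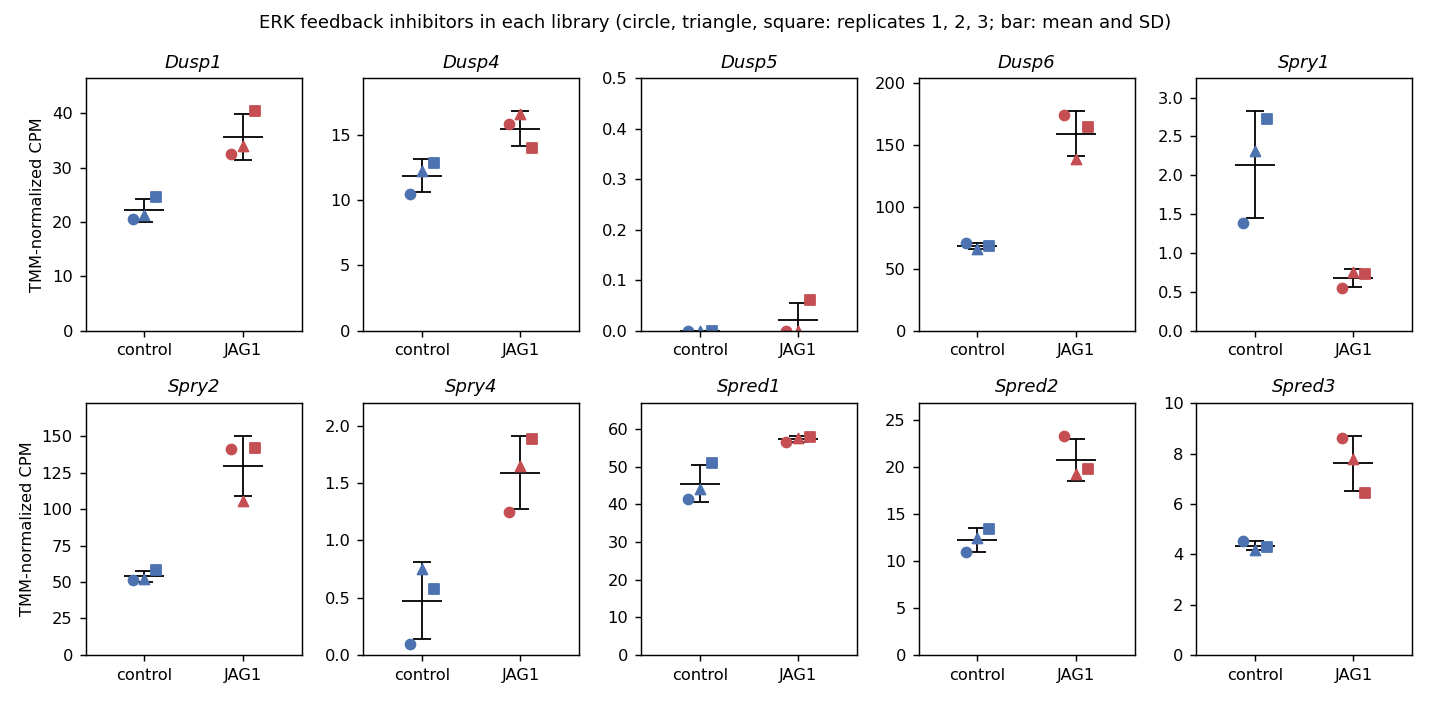
Level of each feedback inhibitor (y axis, TMM-normalized CPM, starting at 0, a scale of its own for each gene) in the 3 control (blue) and 3 JAG1-overexpressing (red) libraries; symbols mark replicates 1 to 3 and bars the mean and SD. The groups do not overlap for the 9 tested genes, with Spry1 the 1 gene that is lower, and Dusp5 has a single read in 1 library.

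Among the 3 tested member phosphatases, Dusp6, which is specific for ERK, had the largest change. Dusp6 (chr10:99263231-99267489 in GRCm38.p6) had 70.7, 65.8 and 68.5 CPM in the control libraries and 174.1, 139 and 164.4 CPM in the JAG1-overexpressing libraries. The control libraries lay close together, and the lowest JAG1-overexpressing library, replicate 2, was still far above them. The means were 68.3 ± 2.45 and 159.2 ± 18.1 CPM (SD, n = 3 each), a 2.33-fold rise, or a log2 fold change of 1.22 (0.0801 standard error, edgeR adjusted p = 2.49e-07).

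Dusp1 (chr17:26505591-26508472), an immediate early phosphatase that growth factors and stress induce alike, had 20.6, 21.3 and 24.5 CPM in control and 32.5, 34.0 and 40.4 CPM in JAG1-overexpressing libraries. The gap between the highest control and the lowest JAG1-overexpressing library was larger than the SD within a group, 2.10 and 4.21 CPM. Its log2 fold change was 0.68 (0.102 standard error, edgeR adjusted p = 0.000175). Part of the locus overlaps other annotated genes, among them 640 bases of Ergic1 on the opposite strand. Ergic1 (ERGIC1 in the files) had 136.3 CPM in control and 169 CPM in JAG1-overexpressing astrocytes (log2 fold change 0.31, edgeR adjusted p = 0.000595). Which strand the authors counted is not given in the sources used here, so that reads of such overlaps may be shared.

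Dusp4 (chr8:34807610-34819894), a nuclear phosphatase of ERK, p38 and JNK, had the smallest change of the 3 tested member phosphatases. It had 10.5, 12.2 and 12.9 CPM in control and 15.8, 16.6 and 14.0 CPM in JAG1-overexpressing libraries. The groups did not overlap, but the gap between the highest control and the lowest JAG1-overexpressing library was smaller than the SD within a group, 1.24 and 1.34 CPM. The log2 fold change was 0.38 (0.110 standard error, edgeR adjusted p = 0.0123), and without JAG1-overexpressing replicate 2 the adjusted p was 0.0497.

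Dusp5 (chr19:53529145-53541809), the nuclear phosphatase that binds ERK alone, was not detectable at this depth. It had 0 reads in 5 libraries and 1 read in JAG1-overexpressing replicate 3. A count of 3, taken as the floor, equals 0.148 to 0.206 CPM depending on the library and covers counting error only. Dusp5 was therefore neither tested nor given a fold change.

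The Sproutys moved in opposite directions. Spry2 (chr14:105891947-105896819), which blocks signaling from receptors to RAS and RAF once growth factors have phosphorylated it, had 51.4, 52.0 and 58.4 CPM in control and 141.4, 105.6 and 141.8 CPM in JAG1-overexpressing libraries. JAG1-overexpressing replicate 2 was again the lowest of its group, as it was for Dusp6. The means were 53.9 ± 3.92 and 129.6 ± 20.8 CPM (SD, n = 3 each), a 2.41-fold rise (log2 fold change 1.27, standard error 0.107, adjusted p = 1.91e-06 from edgeR).

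Spry4 (chr18:38586247-38601347), an inhibitor of RAS activation downstream of FGF and VEGF receptors, had few reads: 2, 14 and 11 in control and 25, 24 and 31 in JAG1-overexpressing libraries. These equal 0.0988, 0.752 and 0.575 CPM in control and 1.25, 1.65 and 1.88 CPM in JAG1-overexpressing libraries. The groups did not overlap, but control replicate 1 was below the floor of 3 reads. The filter needs 3 libraries at 0.529 CPM or more, reached by 2 of the 3 control and by 3 JAG1-overexpressing libraries. Spry4 was thus tested through the group in which it was high. The log2 fold change was the largest of the members that rose and the least precise, 1.74 with a 95% interval from 0.72 to 2.76 (adjusted p = 0.00783 from edgeR). Without control replicate 1 it was 1.24, and across the other fits that left out 1 library it reached 2.23.

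Spry1 (chr3:37639947-37644599), a Sprouty known from kidney development and from resting stem cells, was the member that fell. It had 28, 43 and 52 reads in control and 11, 11 and 12 reads in JAG1-overexpressing libraries, or 1.38, 2.31 and 2.72 CPM against 0.548, 0.757 and 0.729 CPM. The spread among control libraries was wide, but each of them lay above each JAG1-overexpressing library. The log2 fold change was −1.66 (0.335 standard error, edgeR adjusted p = 0.00145), and with 1 library left out at a time it stayed between −1.90 and −1.45. The annotated gene model Gm42922 overlaps 710 bases of Spry1 on the opposite strand.

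The 3 Spreds rose, by log2 fold changes from 0.34 to 0.81. Spred1 (chr2:117121071-117182279), the Spred whose loss causes Legius syndrome, had 41.6, 44.2 and 50.9 CPM in control and 56.5, 57.8 and 58.1 CPM in JAG1-overexpressing libraries. The JAG1-overexpressing libraries were nearly level, and control replicate 3 came closest to them. Its log2 fold change was 0.34 (0.0789 standard error, edgeR adjusted p = 0.00393), with a 95% interval from 0.16 to 0.51.

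Spred2 (chr11:19924442-20024026), a close relative that also recruits neurofibromin, had 10.9, 12.5 and 13.4 CPM in control and 23.3, 19.2 and 19.7 CPM in JAG1-overexpressing libraries. The difference between the groups was larger than the spread in either, with a log2 fold change of 0.76 (0.111 standard error, edgeR adjusted p = 0.000139). Spred3 (chr7:29157783-29170070), the least studied Spred, had 4.54, 4.19 and 4.29 CPM in control and 8.62, 7.78 and 6.44 CPM in JAG1-overexpressing libraries. The control libraries were nearly level and lay below the lowest JAG1-overexpressing library, replicate 3. Spred3 thus changed by 0.81 on the log2 scale (0.146 standard error, edgeR adjusted p = 0.000659), and 202 bases of it overlap the gene Ggn on the opposite strand.

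**Figure D2:**
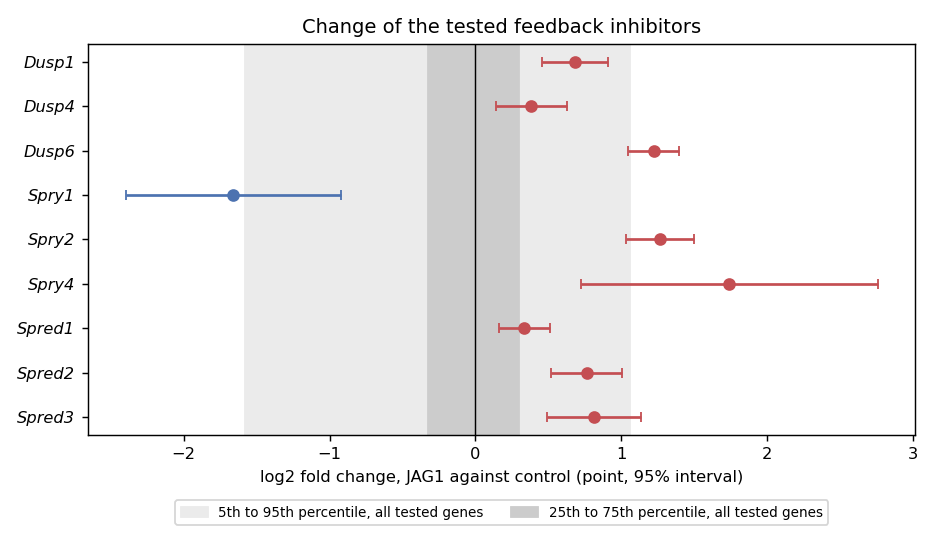
Log2 fold change in JAG1-overexpressing against control astrocytes (x axis) of the 9 tested members, with 95% intervals from edgeR; grey bands mark the middle 50% and 90% of all tested genes. Dusp6 and Spry2 lie near 1.2 with narrow intervals, Spry4 at 1.74 and Spry1 at −1.66 have wide ones, and Dusp4 and Spred1 sit nearest to 0.

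Set beside the distribution over all tested genes, the log2 fold changes of Dusp6, Spry2 and Spry4 lay at percentiles 95.9, 96.1 and 97.4, that of Spry1 at 4.79 and that of Spred1 at 77.3. At a limit of 2-fold, 3 members were higher (Dusp6, Spry2 and Spry4), where 5.46% of all tested genes were, and Spry1 was lower, where 8.49% were. Spry4 is in the percentiles and in this count although it was tested through the group in which it was high. Summed within each family, the phosphatases went from 102.3 ± 3.32 to 210.2 ± 18 CPM (SD, n = 3 each), the Sproutys from 56.5 ± 4.63 to 131.9 ± 20.7 CPM and the Spreds from 62.2 ± 5.91 to 85.8 ± 2.30 CPM. The sums rose by 2.06, 2.33 and 1.38 times, and most of each came from Dusp6, Spry2 and Spred1 in turn. Spry1, at 2.14 CPM in control beside 53.9 CPM for Spry2, was too low for its fall to weigh on the Sprouty total.

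Chromosomes 15 and 19 were shifted as a whole in these libraries, with median log2 fold changes of −0.53 and 0.61, and the tested members lie on neither. The medians of the chromosomes that carry the 9 tested members were between −0.0202 and 0.0465. For Dusp6 the 10 nearest tested genes had a median log2 fold change of −0.124, for Spry2 of 0.11, for Spry4 of 0.152 and for Spry1 of 0.0939. None of the 10 neighbours of Spry1 fell below −0.413, none of those of Spry2 rose above 0.697 and none of those of Spred2 above 0.507. Around Dusp1, Dusp4, Dusp6, Spry4, Spred1 and Spred3, in contrast, the largest rise among the neighbours exceeded that of the member, up to 7.62 beside Dusp4. Beside Spred3, at 0.8132, the neighbours Fam98c, Rasgrp4 and 2200002D01Rik rose by 0.8245, 0.8173 and 0.8982. Dusp5, which was not detected, lies on chromosome 19, where its 10 nearest tested genes had a median of 0.198.

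**Figure D3:**
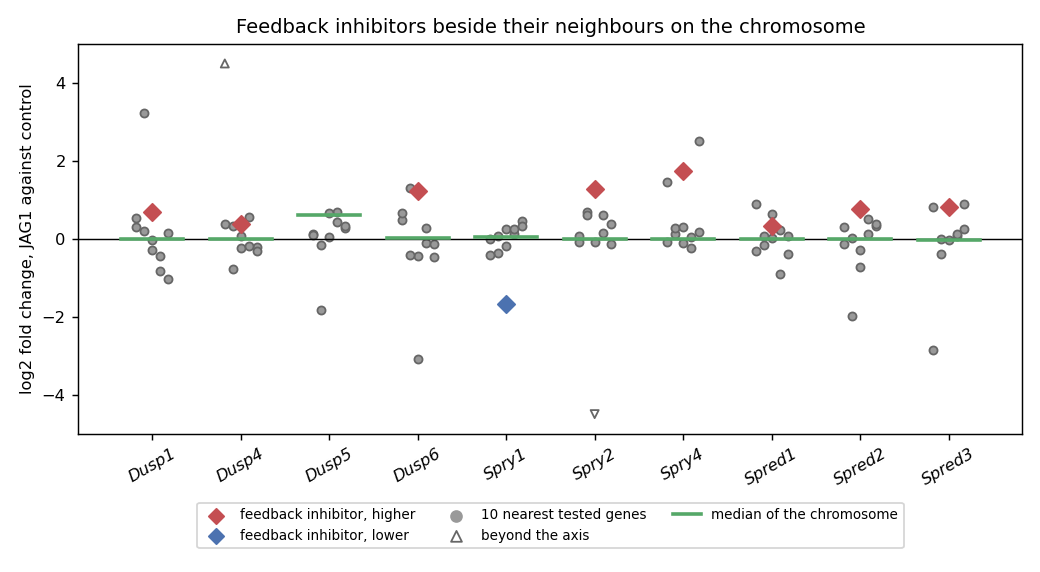
Log2 fold change in JAG1-overexpressing against control astrocytes (y axis) of each member (diamonds), its 10 nearest tested genes in annotation order (grey circles; open triangles lie beyond the axis) and the median of its chromosome (green line). Spry1 lies below and Spry2 and Spred2 lie above all 10 of their neighbours, and the green line departs from 0 for Dusp5 on chromosome 19.

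The sequence before the transcription start was read for 8 members, since the tables used here hold no entry for Dusp4 and Spry4. RefSeq windows of GRCm38.p6 from 250 bases before to 50 after the start were searched on both strands for 6 short motifs. These were TGGGAA, bound by the NOTCH effector RBPJ; GTCTG, a core of SMAD elements; TGANTCA, bound by AP-1; TGACGTCA, the cAMP response element; CCGGAA, a core of ETS factor sites; and the CArG box of SRF. The 250 bases before the start are shown for Dusp6 and Spry2, which rose most among the well-covered members, for Spry1, which fell, and for Dusp1 and Spred2, which hold matches. Capitals mark every match, and no match overlaps another.

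Dusp6, chr10:99262981-99263230, plus strand: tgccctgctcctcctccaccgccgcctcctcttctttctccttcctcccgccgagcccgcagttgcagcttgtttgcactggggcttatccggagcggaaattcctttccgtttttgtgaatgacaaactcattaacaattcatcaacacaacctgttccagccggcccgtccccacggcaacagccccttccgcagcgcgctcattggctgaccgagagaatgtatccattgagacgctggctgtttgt
Spry2, chr14:105896820-105897069, minus strand: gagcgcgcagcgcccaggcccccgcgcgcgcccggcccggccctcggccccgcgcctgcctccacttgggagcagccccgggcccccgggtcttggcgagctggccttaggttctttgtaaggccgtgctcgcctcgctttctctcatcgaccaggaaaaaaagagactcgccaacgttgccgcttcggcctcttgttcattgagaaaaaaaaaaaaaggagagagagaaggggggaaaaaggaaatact
Spry1, chr3:37639697-37639946, plus strand: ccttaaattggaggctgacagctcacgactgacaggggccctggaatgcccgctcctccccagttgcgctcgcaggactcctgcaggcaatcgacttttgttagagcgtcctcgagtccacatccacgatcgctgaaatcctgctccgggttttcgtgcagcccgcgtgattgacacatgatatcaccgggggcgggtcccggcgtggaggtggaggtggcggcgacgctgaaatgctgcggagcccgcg
Dusp1, chr17:26508473-26508722, minus strand: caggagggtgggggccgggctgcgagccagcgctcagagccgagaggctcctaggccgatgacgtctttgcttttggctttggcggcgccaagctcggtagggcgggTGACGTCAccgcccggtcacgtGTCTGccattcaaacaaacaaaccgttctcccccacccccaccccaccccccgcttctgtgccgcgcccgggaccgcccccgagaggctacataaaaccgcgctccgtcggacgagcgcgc
Spred2, chr11:19924192-19924441, plus strand: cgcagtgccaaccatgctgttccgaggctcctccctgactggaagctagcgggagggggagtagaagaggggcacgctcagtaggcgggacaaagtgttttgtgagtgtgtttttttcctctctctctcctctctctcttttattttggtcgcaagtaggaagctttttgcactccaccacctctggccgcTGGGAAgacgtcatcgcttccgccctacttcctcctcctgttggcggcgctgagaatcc

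The Dusp1 sequence holds the cAMP response element 143 bases and GTCTG 121 bases before the start, and the Spred2 sequence holds TGGGAA 59 bases before it. The Spry2 window holds CCGGAA 34 bases after the start, outside the stretch shown. Dusp5 has a pair of CArG boxes, 82 and 72 bases before its start. Of the 8 windows, 1 held TGGGAA, 1 GTCTG, 1 TGACGTCA, 1 CCGGAA, 1 the CArG box and 0 TGANTCA. Among 32851 promoter windows of the same length, TGGGAA was in 25.6%, GTCTG in 49.6%, TGANTCA in 7.81%, TGACGTCA in 1.79%, CCGGAA in 14.9% and the CArG box in 1.63%. No member that rose shared a matched motif with another in these windows, and the windows of Dusp6, Spry1, Spred1 and Spred3 held none of the 6. The Spred3 window, chr7:29168598-29168897 on the minus strand, lies inside the gene span given above. Its result therefore concerns an internal start, and the sequence before the outermost start of Spred3 was not read.

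The other target genes of ERK were examined next, from a list of 22 that, like the lists below, was drawn up with earlier results of these data known. Of the 20 tested, 12 rose, 3 fell and 5 did not pass the test. These are shares of 60% higher and 15% lower, beside 27.4% and 27.7% of all tested genes, with a median log2 fold change of 0.48. Etv4 and Etv5, ETS factors that FGF and EGF signaling induce together with Dusp6 and Spry genes, both rose: Etv4 from 34.6 ± 3.59 to 111.7 ± 2.70 CPM (SD, n = 3 each), a log2 fold change of 1.69 (adjusted p = 1.43e-08 from edgeR), and Etv5 from 12.8 ± 1.06 to 36.4 ± 2.36 CPM, a log2 fold change of 1.51 (adjusted p = 1.18e-07 from edgeR). Egr1, an immediate early zinc finger factor, had a log2 fold change of 1.86 (adjusted p = 3.52e-08 from edgeR) and Ier3, an early response gene that prolongs ERK activity, of 1.75 (adjusted p = 1.27e-09 from edgeR). Ccnd1, cyclin D1, went from 1570 ± 76.2 to 3056 ± 59.4 CPM (log2 fold change 0.96), and Phlda1 had a log2 fold change of 0.23 (adjusted p = 0.00394 from edgeR). Fos, the transient AP-1 subunit, was too low to be tested, at 0.209 CPM in control and 0.268 CPM in JAG1-overexpressing astrocytes. Epha4, an ephrin receptor, had the largest fall of the list, from 18.01 ± 1.38 to 2.85 ± 0.957 CPM (SD, n = 3 each; log2 fold change −2.62). The other falls, named here after their values were seen, were Egr3 and Junb, at log2 fold changes of −1.33 and −0.57. Epha2, Egr2, Ier2, Myc and Lif did not pass the test, so that the early response genes of the list did not move as 1 group.

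**Figure D4:**
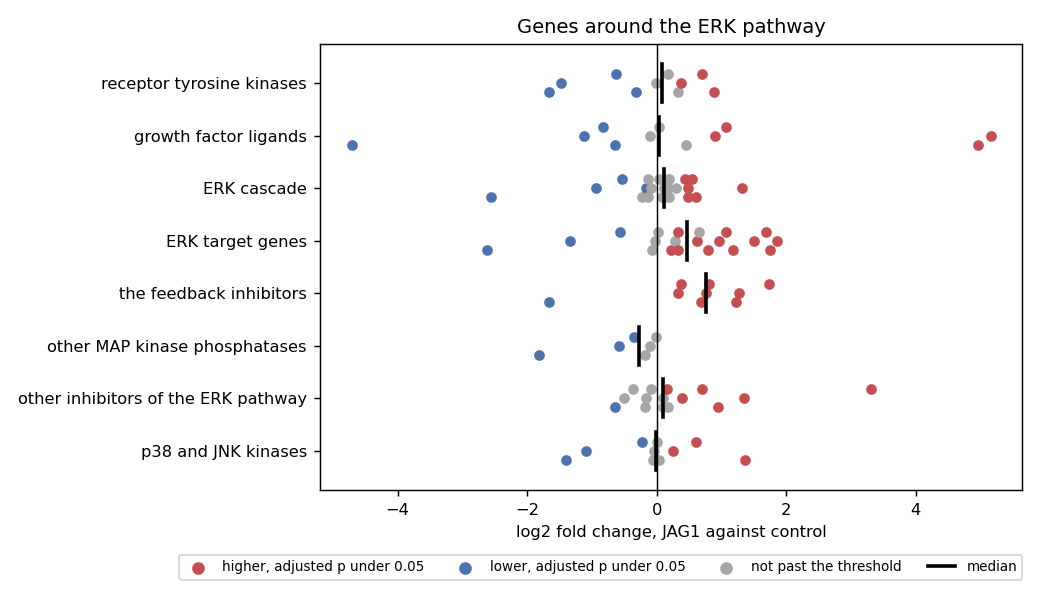
Log2 fold change in JAG1-overexpressing against control astrocytes (x axis) of the tested genes of 8 groups around the ERK pathway; red genes were higher and blue genes lower at an adjusted p under 0.05, grey genes did not pass, and black bars mark medians. The medians of the feedback inhibitors (0.76) and of the ERK target genes (0.48) lie above those of the other groups, and that of the other MAP kinase phosphatases (−0.27) is the lowest of the 8.

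Of the 6 MAP kinase phosphatases outside the 10 members, Dusp2, Dusp9 and Dusp16 fell and the other 3 did not pass the test. Dusp2 and Dusp16, named here after their values were seen, had log2 fold changes of −0.57 and −0.35. Dusp9, a cytoplasmic phosphatase of ERK from the same subfamily as Dusp6, went from 59.4 ± 4.67 to 16.8 ± 1.27 CPM (SD, n = 3 each), at a log2 fold change of −1.82 (0.0872 standard error, edgeR adjusted p = 1.97e-08). Dusp7, the other close relative of Dusp6 and also named afterwards, was 61.5 ± 5.67 and 61.3 ± 1.06 CPM, a log2 fold change of −0.00374 with a standard error of 0.0743. Within the cytoplasmic phosphatases of ERK, Dusp6 was thus higher, Dusp9 lower and Dusp7 different by less than the spread between libraries.

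Of 17 further regulators of the pathway, most but not all of them inhibitors, 15 were tested. Of these, 6 were higher (40%), 1 was lower (6.67%) and 8 did not pass the test, with a median log2 fold change of 0.10. Over all tested genes, 27.4% were higher and 27.7% lower. Rasa3, a GTPase-activating protein that returns RAS to its inactive form, rose from 35.5 ± 1.48 to 90.0 ± 4.25 CPM (SD, n = 3 each; log2 fold change 1.34, adjusted p = 2.36e-08 from edgeR). Pebp1, the RAF kinase inhibitor protein, was the member of this list that was lower, with a log2 fold change of −0.64 (adjusted p = 2.25e-06 from edgeR), and is named here after its value was seen, as is Nf1. Nf1, which encodes the neurofibromin that Spreds recruit, was 8.54 ± 0.797 and 7.63 ± 0.708 CPM, a log2 fold change of −0.16 that did not pass the test (adjusted p = 0.285 from edgeR).

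In the cascade that these genes restrain, 23 genes from adaptors to the RSK kinases were tested, of which 6 were higher, 4 were lower and 13 did not pass. These shares, 26.1% higher and 17.4% lower, lay near or below the 27.4% and 27.7% of all tested genes, with a median log2 fold change of 0.12. Mapk3, which encodes ERK1, fell from 470.1 ± 21.5 to 322.8 ± 20.9 CPM (SD, n = 3 each; log2 fold change −0.54, adjusted p = 1.47e-05 from edgeR). Rps6ka1, the ERK-activated kinase RSK1, fell from 19.4 ± 1.61 to 3.27 ± 0.267 CPM, a log2 fold change of −2.56 (adjusted p = 1.81e-08 from edgeR).

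Upstream, 10 receptor tyrosine kinases were tested, of which 3 rose (30%) and 4 fell (40%), beside 27.4% and 27.7% of all tested genes (median log2 fold change 0.09). Egfr went from 18.3 ± 2.08 to 6.57 ± 0.963 CPM and Pdgfrb from 82.2 ± 1.75 to 26.1 ± 3.34 CPM (SD, n = 3 each), log2 fold changes of −1.48 and −1.66. Of 11 tested ligands, 4 were higher and 4 lower, 36.4% each, and the median was 0.04. Gas6, the ligand of AXL and its relatives, and Hbegf, an EGF receptor ligand that ERK also induces, were higher by log2 fold changes of 5.16 and 1.08, and Hbegf had 53.4 ± 1.90 CPM in control and 112.6 ± 2.04 CPM in JAG1-overexpressing astrocytes. Fgf7 and Pdgfc were lower, by log2 fold changes of −4.71 and −1.12. The remaining called ligands, named here after their values were seen, were Areg and Ereg, higher by 4.97 and 0.90, and Pdgfa and Pdgfb, at −0.64 and −0.83. Areg was low, with means of 0.15 CPM in control and 5.09 CPM in JAG1-overexpressing astrocytes. Pdgfb lies on chromosome 15, where the median log2 fold change was −0.53.

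The p38 and JNK kinases, which Dusp1 and Dusp4 also inactivate, were listed with kinases that act upstream of them, such as Map2k3. Of the 10 tested genes of this list, 3 rose and 3 fell, 30% each. These shares lay near the 27.4% and 27.7% of all tested genes. The median log2 fold change of the list was −0.0132. Map2k3, an activator of p38, rose from 212.1 ± 13.1 to 547.8 ± 16.1 CPM (SD, n = 3 each; log2 fold change 1.37), and Mapk11, p38 beta, fell from 21.4 ± 1.54 to 8.16 ± 1.46 CPM (log2 fold change −1.40, adjusted p = 3.72e-06 from edgeR). Mapk11 lies on chromosome 15, where the median log2 fold change was −0.53.

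Spry4, the member with the largest log2 fold change in size, was compared with the 7803 other genes of at least 10 CPM on average by the Pearson correlation of log2 CPM over the 6 libraries. Cmtr2 (0.997), Prcp (0.992) and Aldh18a1 (0.991) were most alike, and 153 genes had a correlation over 0.95. The 6 points form 2 groups of 3, and Spry4 had 2 reads, under the floor, in control replicate 1, the lowest of the 6. The log2 fold changes of these 3 genes were 0.24, 0.60 and 0.39.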

How the data were processed

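RNA from 3 control and 3 JAG1-overexpressing libraries was sequenced from its 3' ends (QuantSeq). For each library, the authors deposited raw read counts by gene symbol beside log2 values that they had normalized. The submitters' processing notes name Bowtie2, bedtools and edgeR and the builds GRCm38 and mm10; versions, annotation, strand of counting and normalization are not given in the sources used here. The raw counts gave the results, and the deposited log2 values an alternative.

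Groups and replicate numbers came from the titles. The members and gene lists were chosen with earlier results of these data known. The counts were analysed in R 4.3.3 with edgeR 4.0.16: filterByExpr at a minimum count of 10, TMM and the quasi-likelihood test without further terms, with p-values adjusted by the Benjamini-Hochberg method over the 11712 tested genes. Standard errors were derived from the F statistic. An exact permutation test of 3 against 3 libraries cannot give a two-sided p under 0.1 and was not used. Genes outside the members were named by rule: called, at least 10 CPM in either group and a log2 fold change of at least 1 in size, at most 3 each way per list, with Etv4, Etv5, Egr1, Fos, Ccnd1, Phlda1 and Mapk3 in any case. A further gene that the rule names is not reported here. Markers, and neighbours on the chromosome, were named beside these. The fit was checked on simulated counts. Alternatives used DESeq2 1.42.0 and limma 3.58.1. Of the symbols, 22059 matched a RefSeq symbol of GRCm38.p6 and 1090 a synonym. Coordinates and promoters come from RefSeq, and overlaps of genes from GENCODE M21. No protein sequence was used.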

Additional observations from a re-analysis of the deposited data

How the results depend on the processing

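The log2 fold changes of the 9 tested members and of Jag1 kept their direction and stayed past the threshold under 10 alternatives of normalization, filter, test and values and in the 6 fits that left out 1 library each. With 1 library left out at a time, 8 members were higher and 1 was lower in each fit, while over all tested genes between 2724 and 3256 were higher and between 2792 and 3344 lower; the log2 fold change of Jag1 ran from 0.37 to 0.52. The limit on the fold change moved the counts: at 1.5-fold, 1395 genes were higher and 1711 lower, with 6 members higher, and at 2-fold 639 were higher and 994 lower, with 3 members higher, since fewer genes can pass. Whether libraries of the same replicate number were prepared together is not given in the sources used here. Deviations from the group means correlated at 0.148, 0.0614 and 0.119 for numbers 1, 2 and 3, each library most with its own number. With the replicate block, 3380 genes were higher and 3331 lower, 6374 of them also called without it, and 8 members were higher and 1 lower. Depth limits Spry1, Spry4 and Dusp5, which had at most 52, 31 and 1 reads in a library.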
